A study of Mus musculus with 14 samples.

Results

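Wildtype reprogrammed clones were compared with the wildtype bulk culture at the same time point of reprogramming, by reduced representation bisulfite sequencing (RRBS) of DNA methylation. The comparison uses 4 of the 14 libraries of the study, chosen by their titles: 3 libraries of wildtype clones and 1 library of the wildtype 3-week culture. The cells were mouse tail fibroblasts driven towards a pluripotent state by ectopic Oct4, Sox2, Klf4 and cMyc. The clones had been picked at 2 weeks and were measured after 3 weeks, whereas the culture was measured unpicked at 3 weeks. All 4 libraries carry the wildtype genotype and the same factor treatment. Untreated wildtype fibroblasts (1 library), and AID-null clones (3 libraries), 3-week culture (1 library) and fibroblasts (1 library), are used only for values set beside these. AID (activation-induced deaminase) converts cytosine in DNA to uracil, and its loss is the second genotype of the study. The labels do not say whether the clones came from separate animals or cultures, nor how the factors were delivered, so the error behind each p-value is that between picked clones, which may be technical.

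Methyl groups on the cytosines of CpG dinucleotides are set by de novo methyltransferases, copied after replication by a maintenance methyltransferase, and removed by dilution or through oxidation by Tet enzymes. CpG islands, stretches of dense CpG at many promoters, are mostly free of methylation, whereas sparse CpG in the rest of the genome is mostly methylated in differentiated cells. Reprogramming to pluripotency involves loss of methylation at regulatory regions of pluripotency genes and gain at some regions used by the starting cell type. A picked colony descends from few cells, while a bulk culture holds all cells of the dish at whatever stage they have reached. RRBS reads cytosines close to restriction sites and is weighted towards CpG-dense DNA. An intermediate level in a bulk library can stand for a mixture of methylated and unmethylated cells or for intermediate methylation within each cell, and these cannot be told apart here.

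The RNA library of the wildtype culture was read to check its label, since the clones have no RNA library and their label could not be checked in this way. All 10 pluripotency markers were at least 2-fold higher in the culture than in fibroblasts, where 27% of 15196 genes were higher and 17.7% lower by that measure. Pou5f1, which encodes Oct4, stood at 2390 FPKM in the culture and 2.32 FPKM in fibroblasts. Pou5f1 and Sox2, both among these markers, were also given as ectopic factors. Whether their reads came from the ectopic or the cells' own genes was not tested. Nanog, a core pluripotency factor, stood at 347 FPKM in the culture and 1.29 FPKM in fibroblasts, and Esrrb, a naive pluripotency factor, at 414 FPKM in the culture and was listed at 0 in fibroblasts. All 5 epithelial markers were also higher. Fibroblast transcripts were still present: Dcn, which encodes the matrix proteoglycan decorin, stood at 1246 FPKM in the culture and 3678 FPKM in fibroblasts, and the 10 fibroblast markers summed to 5304 FPKM in the culture and 75372.5 FPKM in fibroblasts, with 8 of them at least 2-fold lower and none at 0. Macrophage markers were lower for 4 of 5, with the receptor adaptor Tyrobp and the complement gene C1qc listed at 0 in the culture. Keratinocyte markers were at least 2-fold higher for 4 of 5, between 3.09 FPKM for Ivl and 54.2 FPKM for Sfn in the culture, while the defining keratin Krt5 stood at 1.04 FPKM in the culture and 1.67 FPKM in fibroblasts. Muscle markers were higher for 3 of 5, among them Mylpf, a myosin light chain, at 188 FPKM in the culture and 2.28 FPKM in fibroblasts, while the muscle regulator Myog stood at 0.70 FPKM in the culture and Actc1 was listed at 0. In bulk RNA fewer cells of a type and less RNA per cell cannot be told apart. The part of fibroblasts or other cell types in the methylation results was not tested.

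Coverage summed over CpG positions was 283839215, 279665786 and 287780746 reads in clones 1 to 3 and 263448576 reads in the culture. The files shared 1565444 positions, each counted per strand, and 1527684 autosomal ones entered the comparison, with a median coverage of 152, 151 and 155 in the clones and 120 in the culture. Mitochondrial cytosines, which report incomplete bisulfite conversion, read 0.129%, 0.123% and 0.0963% methylated in the clones and 0.0968% in the culture. The genome was divided into tiles of 1000 bp, of which 116097 held at least 3 shared positions, and a tile's level is its methylated reads over all its reads. Tiles with at least 40 covered cytosines took 54.9% to 55.2% of the tile reads in the clones and 51.5% in the culture. Between chromosomes, coverage relative to the culture was within 0.976 to 1.04 times in every clone.

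Averaged over tiles, the clones were more methylated than the culture. Mean tile methylation was 44.7%, 46.3% and 46.8% in clones 1 to 3, which is 45.9% ± 1.13 (SD, n = 3), against 41.5% in the culture (n = 1). Every clone lay above the culture, by 3.19 to 5.35 points, and the clones differed among themselves by less than the smallest of these gaps. With equal weight for each position the levels were 23.4%, 24.3% and 24.6% in the clones and 22.0% in the culture, again with no overlap. As methylated reads over all reads they were 21.2%, 22.1% and 22.2% in the clones and 21.6% in the culture, so by this measure the groups overlapped. The exact two-sided permutation p over the 4 libraries was 0.25 for tiles and for positions, the smallest that 3 against 1 allows, and 1 for reads. The clones were therefore all above the culture when tiles or positions had equal weight, and not when reads had. The depth of the libraries and the share of reads in dense tiles moved with the group, and their part in the level was not tested.

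The larger contrast was in the shape of the distribution. Among tiles, 7.44%, 10.8% and 9.70% were at or above 80% methylation in the clones, and 1.58% in the culture. Tiles between 40% and 60% made up 21.4%, 19.05% and 18.7% in the clones and 31.7% in the culture. The culture thus held few fully methylated tiles and many intermediate ones, with no overlap between its values and those of the clones. Tiles under 5% made up 20.1%, 19.9% and 19.3% in the clones and 19.1% in the culture, so the unmethylated class was of nearly equal size in all 4 libraries.

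**Figure D1:**
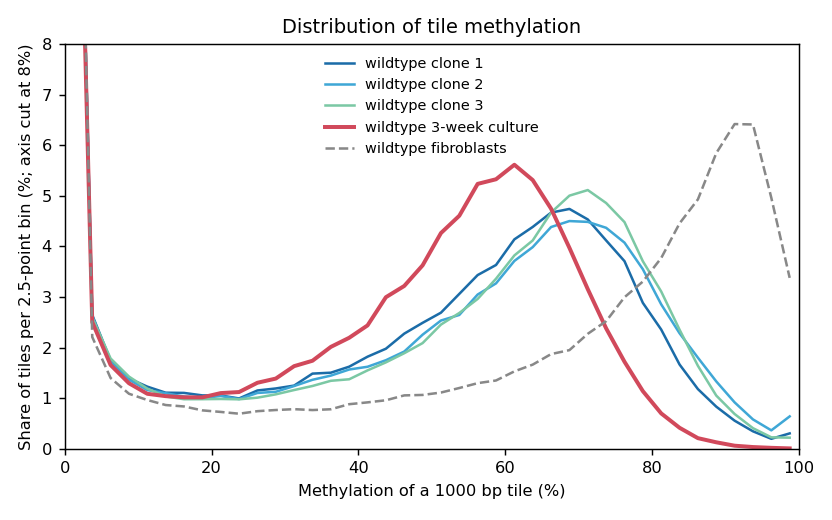
Distribution of methylation over 1000 bp tiles in the 3 wildtype clones, the wildtype 3-week culture and wildtype fibroblasts, as the share of tiles per 2.5-point bin. The y axis is cut at 8%, which hides the bins next to 0%. The clone curves peak near 70%, the culture curve near 60% and the fibroblast curve above 90%.

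Single positions gave the same picture. Positions at 90% or above made up 3.08%, 4.68% and 3.20% of all shared positions in the clones and 0.591% in the culture. The share between 40% and 60% was 9.34%, 8.55% and 8.74% in the clones and 13.9% in the culture. The 95th percentile of positions was 84.9%, 89.1% and 85.9% in the clones and 75% in the culture. Positions without any methylated read made up 47.7%, 50.2% and 46.4% in the clones and 44.1% in the culture, so both ends of the scale were fuller in the clones. The extremes depend on depth, and after each position was thinned to 10 reads in every library, 9 or 10 of them were methylated at 7.40%, 9.04% and 8.12% of positions in the clones and 3.42% in the culture. Of the thinned positions 13.0%, 12.2% and 12.8% had 4 to 6 methylated reads in the clones, against 17.2% in the culture. No methylated read remained at 58.3%, 58.4% and 57.0% of them in the clones and 55.9% in the culture, which brought the difference to 2.02 points, against 4.04 points before thinning. Each of these shares separated all 3 clones from the culture at equal depth.

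Clone by clone, the typical tile differed more between a clone and the culture than between clones, while the spread of the differences was alike. The median absolute difference per tile was 6.04 to 6.99 points between a clone and the culture and 4.58 to 4.98 points between clones, without overlap. The SD of tile differences was 10.9 to 12.2 points between a clone and the culture and 10.7 to 11.9 points between clones. Differences of at least 25 points were found in 5536, 7827 and 5785 tiles between clones 1 to 3 and the culture, and in 4808 to 6457 tiles between pairs of clones. Against the culture most of these tiles were higher in the clone, with 4117 higher and 1419 lower for clone 1, 6414 higher and 1413 lower for clone 2, and 5051 higher and 734 lower for clone 3. Every clone lay above the culture in 50289 tiles (43.3%) and below it in 17359 tiles (15%), and in the other 48449 tiles the culture lay within the range of the clones. Between clones the sign leaned too: clone 1 was higher in 2630 and lower in 3827 tiles against clone 2. Against clone 3, clone 1 was higher in 1621 and lower in 3187, and clone 2 higher in 2371 and lower in 2913. Differences of 25 points and a leaning sign were thus also found between clones, while the lean was stronger against the culture for every clone.

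A tile was called where the quasi-binomial model gave an adjusted p under 0.05 (Benjamini-Hochberg over all tiles) with a difference of at least 25 points between the clone mean and the culture. The model takes its spread from the 3 clones and assumes that the 1 culture varies like them. By this rule 77 tiles rose in the clones relative to the culture (0.0663% of 116097) and 47 fell (0.0405%). In all, 526 tiles had an adjusted p under 0.05, and 12699 (10.9%) an unadjusted p under 0.05, of which 8923 were higher and 3776 lower in the clones. Among the 402 tiles with an adjusted p under 0.05 but a difference under 25 points, 373 were lower in the clones, with median levels of 0.996% in the clones, 12.7% in the culture and 48.0% in fibroblasts. These calls depend on the tool: limma on log2 ratios and edgeR called 0 tiles, with 8541 and 8213 at an unadjusted p under 0.05. Without clone 1, 2 or 3 the model called 1196, 848 or 718 tiles higher and 145, 152 or 171 lower, and still called 74, 72 or 73 of the 77 and 46, 43 or 46 of the 47. Leaving out a clone thus made the model call more tiles, so keeping most of the calls is not separate support for them. With the spread taken from all 6 clones of both genotypes it called 57 higher and 36 lower, and of the calls tested there it kept 27 of 74 higher and 27 of 44 lower, so that most calls in the higher direction were lost.

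The tiles called higher stood at high methylation in the clones, at intermediate methylation in the culture and mostly at low to intermediate methylation in fibroblasts. Their median levels were 75.3%, 73.1% and 76.2% in clones 1 to 3 and 40.8% in the culture, and 26.4% in wildtype fibroblasts. Of the 75 listed in fibroblasts, 20 were there under 10%, 17 from 10% to 25%, 23 from 25% to 50%, 8 from 50% to 75% and 7 at 75% or above. These shares were 26.7%, 22.7%, 30.7%, 10.7% and 9.33%. Of all tiles listed in fibroblasts, the same classes held 23.2%, 4.85%, 8.72%, 16.8% and 46.5%. The share under 10% was thus near that of all tiles, and the next 2 classes were above it. By their medians these tiles were lowest in fibroblasts and highest in the clones, with the culture between. The clone mean was at least 75% in 39 of the 77. They lay on 18 chromosomes and none was next to another.

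The tiles called lower had the opposite profile, close to unmethylated in the clones, intermediate in the culture and high in fibroblasts. Their median levels were 6.19%, 4.75% and 6.64% in clones 1 to 3 and 37.7% in the culture, and 89.1% in fibroblasts. Of the 45 listed in fibroblasts, 38 (84.4%) stood there at 75% or above, a class that holds 46.5% of all tiles. In 37 of the 47 the clone mean was under 10%, and in 28 every clone was. In the culture these tiles ranged from 26.9% to 73.7%. The call rule itself keeps a tile called lower from standing under 25% in the culture. At the upper end, chr7:35331001-35332000, the culture stood above the fibroblasts, which read 58.6%.

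**Figure D2:**
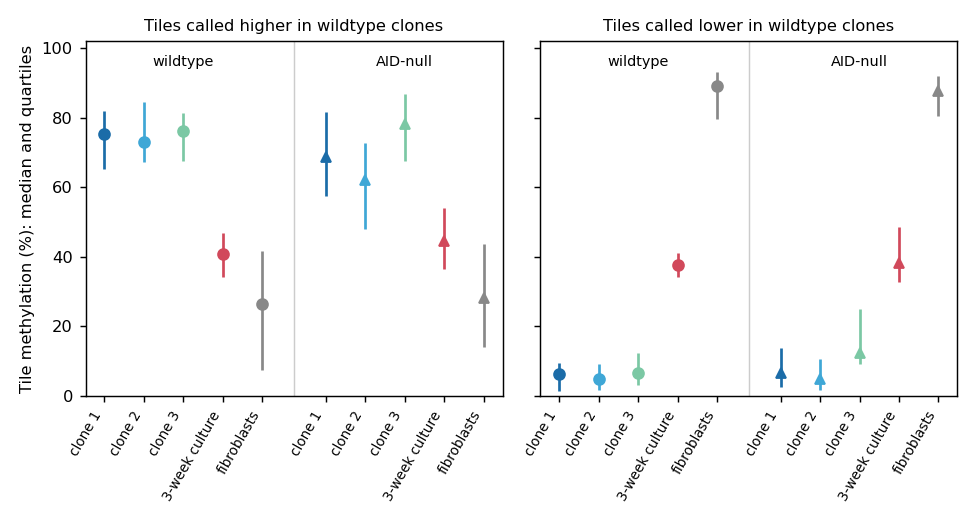
Median (point) and quartiles (line) of the methylation of the tiles called higher (left, 77 tiles) and lower (right, 47 tiles) in wildtype clones, in each wildtype library (circles) and each AID-null library (triangles). The calls used the wildtype clones and culture only. In the left panel the cultures lie at 40.8% and 44.7%, below all 6 clones, and in the right panel at 37.7% and 38.2%, above all 6 clones.

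The AID-null libraries, which had no part in the calls, showed the same order of clones and culture in these tiles. Tiles called higher in wildtype clones had medians of 68.9%, 62.1% and 78.3% in AID-null clones and 44.7% in the AID-null culture. Every AID-null clone lay above the AID-null culture in 53 of the 71 such tiles covered in all 4 libraries (74.6%), against 24.5% of all tiles. Tiles called lower had medians of 6.60%, 4.90% and 12.3% in AID-null clones and 38.2% in the AID-null culture, and every AID-null clone lay below the AID-null culture in 38 of 43 (88.4%), against 23.0% of all tiles. The median difference of AID-null clones minus AID-null culture was 21.2 points over the first set and −27.4 points over the second, and 0.026 points over all tiles.

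A rule without a test, every clone at least 25 points to the same side of the culture, found 738 tiles higher (0.636%) and 123 lower (0.106%). It includes 56 of the 77 tiles called higher and 36 of the 47 called lower. Over the 738 tiles the medians were 74.3%, 75.7% and 75.0% in the clones, 41.0% in the culture and 35.9% in fibroblasts. Over the 123 tiles they were 13.3%, 14.4% and 17.0% in the clones, 51.1% in the culture and 88.9% in fibroblasts. The wider sets thus had the profile of the called ones, with the culture between the clones and the fibroblasts in the lower set.

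Positions are given on the mouse build mm9, and the genes at these positions were not analysed here. Among called tiles with every clone at least 25 points to the same side, at least 5 positions and at least 100 reads per library, the 10 with the largest difference in each direction are described. The largest difference upward was at chr8:15257001-15258000, with 84.5%, 93.3% and 91.9% in the clones, 35.8% in the culture and 39.5% in fibroblasts (adjusted p = 0.0443). At all 5 of its positions the culture lay below every clone. The best supported gain was at chr8:122715001-122716000, with 17 positions and 3068 to 3873 reads per library. It read 71.8%, 70.1% and 73.9% in the clones, 34.2% in the culture and 4.85% in fibroblasts (adjusted p = 0.0029), a region with almost no methylation in the starting cells. AID-null clones read 76.9%, 76.2% and 77.8% there and the AID-null culture 35.3%.

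Other gains also began near 0. The tile chr1:19101001-19102000 read 58.8%, 57.9% and 51.1% in the clones, 16.6% in the culture and 0.903% in fibroblasts (adjusted p = 0.0275). At chr13:52597001-52598000 the values were 72.8%, 73.1% and 71.0% in the clones, 34.1% in the culture and 3.36% in fibroblasts (adjusted p = 0.0493). In these tiles the culture was between fibroblasts and clones. A second kind of gain had the culture at or below the fibroblast level: chr17:14602001-14603000 read 86.3%, 70.8% and 87.2% in the clones, 41.9% in the culture and 43.3% in fibroblasts (adjusted p = 0.0487), and chr14:120441001-120442000 read 83.7%, 93.5% and 77.4% in the clones, 46.9% in the culture and 56.0% in fibroblasts (adjusted p = 0.0376). The remaining 4, at chr4:150960001-150961000, chr9:71190001-71191000, chr13:103359001-103360000 and chr1:158710001-158711000, differed by 38.2 to 43.2 points. At chr1:158710001-158711000 the AID-null clones did not follow, with 38.98%, 29.4% and 62.4% against 54.3% in the AID-null culture, although the test of the difference between genotypes did not pass (adjusted p = 0.867). At chr17:14602001-14603000 the AID-null culture, at 70.9%, also lay within the range of its clones, at 68.2%, 65.6% and 82.2%.

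Losses in clones were near complete in most of the 10 tiles. The tile chr6:124399001-124400000 had no methylated read in any clone among 272, 383 and 348 reads, which allows a level of up to 1.10%, 0.783% and 0.862% (3 counts, counting error only), while the culture read 40.1% and fibroblasts 96.0% (adjusted p = 1.12e-05). At chr1:7261001-7262000 the clones read 3.43%, 11.5% and 4.74%, the culture 48.9% and fibroblasts 99.5% (adjusted p = 0.0214). At chr8:91474001-91475000, with 10 positions, the clones read 0.156%, 4.12% and 10.0%, the culture 39.1% and fibroblasts 86.9% (adjusted p = 0.0045). In all of these the culture had lost part of the fibroblast methylation and the clones nearly all of it. The tile chr7:35331001-35332000 differed from that pattern, at 33.6%, 27.6% and 36.7% in the clones, 73.7% in the culture and 58.6% in fibroblasts (adjusted p = 0.0354), with the culture above every clone at 3 of its 6 positions. At chr6:16954001-16955000 the clones read 18.5%, 29.8% and 31.4%, the culture 67.2% and fibroblasts 88.7% (adjusted p = 0.0077). The culture lay above every clone at 4 of its 6 positions. Position by position the medians were closer, at 38.6%, 33.7% and 61.5% in the clones and 65.7% in the culture. Over the tile, AID-null clones read 92.3%, 62.4% and 80.1% and the AID-null culture 77.9%. The difference between genotypes did not pass its test there (adjusted p = 1). The remaining 5, at chr2:23151001-23152000, chr2:168833001-168834000, chr17:54189001-54190000, chr7:4982001-4983000 and chr4:33083001-33084000, had differences of −38.6 to −34.0 points, with clones at 1.19% to 11.9%, the culture at 37.7% to 47.9% and fibroblasts at 75.0% to 92.8%. At chr17:54189001-54190000 AID-null clones read 46.7%, 45.5% and 17.8% and the AID-null culture 49.3%. At chr4:33083001-33084000 they read 21.0%, 19.9% and 48.3%, and that culture 43.8%. At the others AID-null clones read 0% to 19.6% and the AID-null culture 28.6% to 60.5%.

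**Figure D3:**
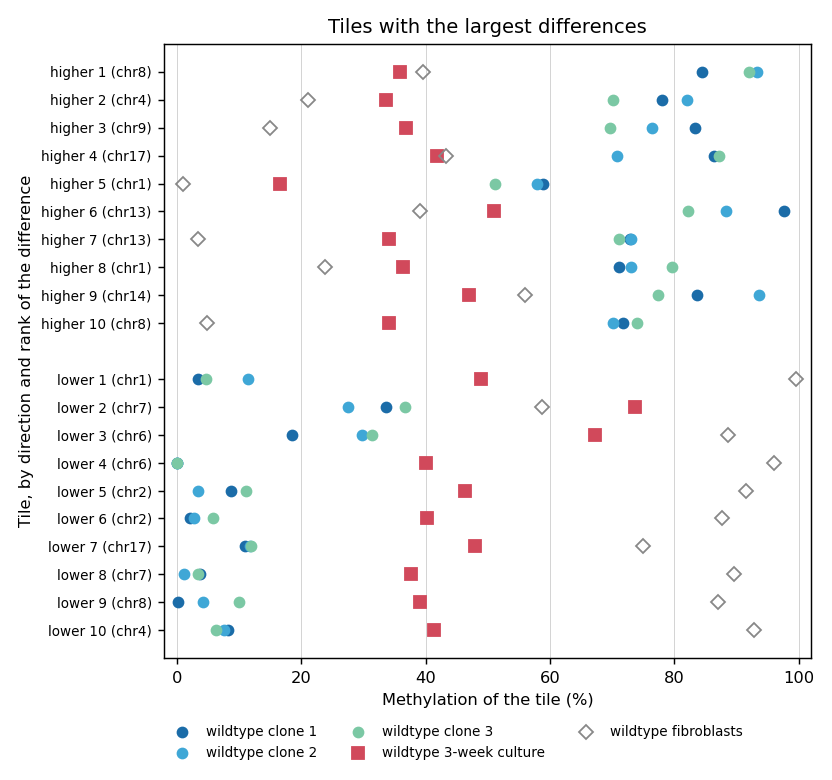
Methylation of the 10 called tiles with the largest gain and the 10 with the largest loss in clones relative to the culture, ordered by the difference, in 3 wildtype clones (circles), the wildtype 3-week culture (squares) and wildtype fibroblasts (open diamonds). The first row, on chromosome 8, reads 84.5% to 93.3% in clones and 35.8% in the culture, and the fourth lower row, on chromosome 6, reads 0% in all 3 clones and 40.1% in the culture.

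Some of the tiles called lower lay next to each other. The 47 tiles called lower made 43 runs, where the next tile starts within 2000 bp, and 3 of these held more than 1 tile. The longest was chr7:4981001-4984000, with 3 tiles and 161 positions. It read 4.68%, 3.47% and 5.30% in clones 1 to 3 and 39.02% in the culture, and 92.2% in fibroblasts. Position by position the medians were 1.61%, 0% and 3.68% in the clones and 38.0% in the culture, and 96.4% in fibroblasts, and the culture lay above every clone at 160 of the 161 positions. The difference was therefore spread over both strands and the whole region, not set by a few cytosines. The adjusted p of its tiles was 1.28e-05, 1.12e-05 and 7.49e-05.

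The flanks of this run on chromosome 7 were of 2 kinds. The tile just before it, chr7:4980001-4981000, read 29.2%, 42.2% and 36.3% in the clones and 56.5% in the culture, and 96.3% in fibroblasts, and was not called (adjusted p = 0.102). The nearest tiles further out, at chr7:4971001-4973000 and chr7:4989001-4991000, were under 3% in clones, culture and fibroblasts alike. In AID-null libraries the run read 2.41%, 1.29% and 6.87% in clones and 32.4% in the culture.

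**Figure D4:**
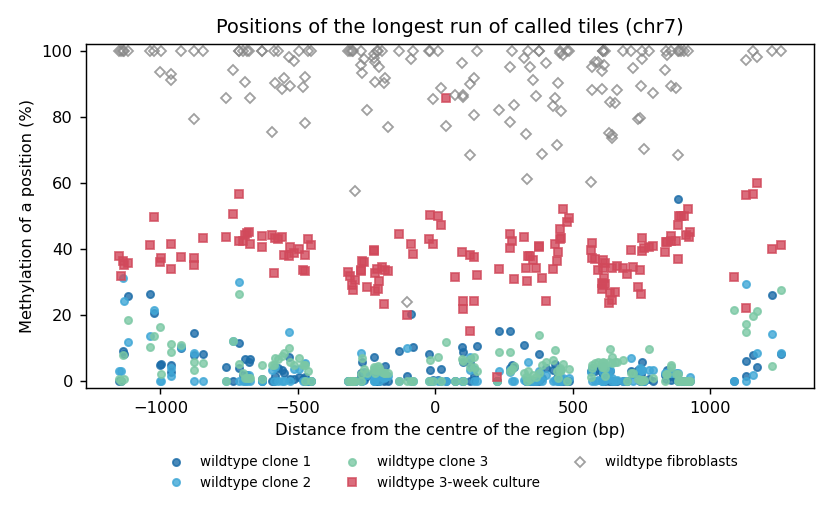
Methylation of each covered cytosine in the longest run of called tiles, on chromosome 7, against its distance from the centre of the region, in 3 wildtype clones (circles), the wildtype 3-week culture (squares) and wildtype fibroblasts (open diamonds). Clone values lie mostly under 20%, culture values around 38.0% and fibroblast values mostly above 80%.

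The next 2 runs had the same order of levels. At chr12:109153001-109155000, with 74 positions, the clones read 7.96%, 8.57% and 10.9%, the culture 39.02% and fibroblasts 94.8%, and the culture lay above every clone at 70 positions. At chr10:79197001-79199000, with 88 positions, the clones read 12.2%, 9.59% and 11.7%, the culture 36.8% and fibroblasts 78.2%, and the culture lay above every clone at 84 positions. The 77 tiles called higher were 77 separate runs, and the difference in run length between the directions was not tested. By the rule without a test, 5 of 733 higher runs held 2 tiles, and the one with the largest difference was chr13:95640001-95642000, at 60.5%, 70.8% and 57.1% in the clones, 28.0% in the culture and 12.3% in fibroblasts.

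Tiles were then grouped by their level in wildtype fibroblasts, a library outside the comparison. The clones were above the culture in every class, and the gap was widest where fibroblasts had low to intermediate methylation. In tiles from 10% to 25% in fibroblasts the clones averaged 34.1% ± 1.00 (SD, n = 3) and the culture 26.1% (5515 tiles). In tiles from 25% to 50% the averages were 44.7% ± 1.27 in the clones and 37.2% in the culture (9919 tiles). From 50% to 75% they were 54.4% ± 1.34 in the clones and 48.4% in the culture (19083 tiles). The gap was 8.05, 7.56 and 5.94 points in these 3 classes, several times the SD of the clones. In tiles at 75% or above the clones averaged 64.2% ± 1.50 and the culture 59.8%, a gap of 4.43 points (52871 tiles). In tiles under 10% the averages were 5.74% ± 0.242 in the clones and 4.23% in the culture, a gap of 1.51 points (26413 tiles). The gap lay mainly in tiles with under 20 covered cytosines, at 4.34, 9.55, 8.21, 6.29 and 4.73 points from the lowest class to the highest. With 20 or more it was 0.360, 1.71, 0.615, −0.641 and −0.899 points. Of the tiles under 10%, 18799 had 20 or more.

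**Figure D5:**
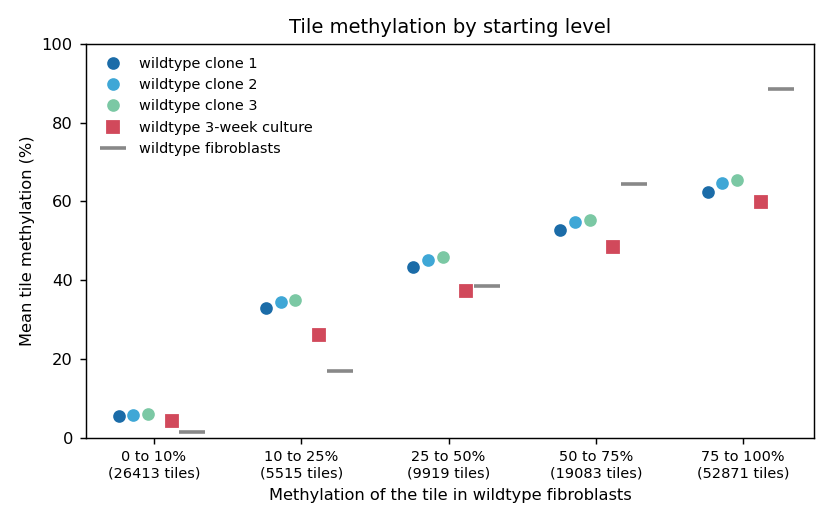
Mean methylation of tiles grouped by their level in wildtype fibroblasts, in each of 3 wildtype clones (circles), the wildtype 3-week culture (squares) and wildtype fibroblasts (bars). Every clone lies above the culture in all 5 classes, by 8.05 points on average in the class from 10% to 25% and by 1.51 points in the class under 10%.

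The gap also fell with the density of covered cytosines. In tiles with 3 to 9 cytosines the clones averaged 59.2% ± 1.32 and the culture 52.8% (58257 tiles), and in those with 10 to 19 the averages were 48.9% ± 1.32 in the clones and 44.7% in the culture (33289 tiles). With 20 to 39 cytosines the values were 19.5% ± 0.776 in the clones and 18.9% in the culture (11711 tiles), and clone 1, at 18.7%, lay below the culture. With 40 or more they were 2.08% ± 0.130 in the clones and 2.19% in the culture (12840 tiles), within the range of the clones. The dense tiles, which resemble CpG islands, were therefore not distinguishable between clones and culture on average. They made up 12840 of the 116097 tiles, 8 of the 47 called lower and none of the 77 called higher. Tiles with 20 or more cytosines that were at 75% or above in fibroblasts averaged 49.6%, 52.0% and 52.9% in the clones and 52.4% in the culture (2841 tiles). Of these, 12 were called lower and none higher, against 38 lower and 7 higher among all 52871 tiles at that fibroblast level.

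The 2 directions were most apart when tiles were grouped by where methylation stood at the start and where it stood in AID-null clones, a grouping chosen after the data were seen that uses none of the 4 libraries. Of tiles at 75% or above in fibroblasts and under 10% on average in AID-null clones, there were 643. In these the wildtype clones read 10.2%, 11.1% and 12.0% and the wildtype culture 24.0%. Every clone lay below the culture in 540 (84.0%), against 15.1% of all tiles with values in the libraries used. Of tiles under 25% in fibroblasts and at 75% or above in AID-null clones, there were 740. In these the wildtype clones read 70.1%, 71.0% and 72.2% and the wildtype culture 50.4%. Every clone lay above the culture in 664 (89.7%), against 44.0% of all tiles with such values. The culture was thus between fibroblasts and clones at both sets of tiles.

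Between these extremes the difference passed through 0. Among tiles at 75% or above in fibroblasts, clones minus culture was −8.29 points where AID-null clones were at 10% to 25% (1985 tiles) and −1.38 points at 25% to 50% (5304 tiles). It was 4.97 points at 50% to 75% (16609 tiles) and 6.73 points at 75% or above (25427 tiles). In the last of these the clones averaged 73.8% and the culture 67.1%, while fibroblasts averaged 89.6%, so at tiles that stayed methylated the culture was the lowest of the 3. Among tiles under 25% in fibroblasts, clones minus culture was 0.196 points where AID-null clones were under 10% (24924 tiles), 4.91 points at 10% to 25% (2308 tiles), 11.2 points at 25% to 50% (1689 tiles) and 17.9 points at 50% to 75% (1678 tiles).

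The position of the culture outside the range of the start and the clones was counted directly. Of the 113801 tiles listed in fibroblasts, the culture lay more than 10 points below both the fibroblasts and every clone in 7465 (6.56%), and more than 10 points above all of them in 89 (0.0782%). Of the 81873 tiles at 25% or above in fibroblasts these were 7452 (9.10%) and 50, a class whose high start leaves little room for a culture above it. Of the 31928 tiles under 25% in fibroblasts the order was the other way, with 13 below and 39 above by that margin. With no margin the culture was the lowest in 33.0% of tiles and the highest in 3.98%, and in the other 63.0% it lay between. In the tiles under 25% in fibroblasts, with no margin, it was the lowest in 10.9% and the highest in 12.2%. The excess of tiles with the culture lowest was thus counted in those methylated at the start. Of the tiles under 25%, 26413 were under 10% in fibroblasts, where the culture cannot lie 10 points below. Whether the excess is particular to tiles methylated at the start can therefore not be read from these counts.

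The higher tile level of the clones was spread over the genome. On all 19 autosomes every clone was above the culture, by 3.89 points on average on chromosome 17 to 4.94 points on chromosome 1. Of 1600 windows of 1 Mb with at least 20 tiles, every clone was above the culture in 1493 and below it in 6. The median window differed by 4.60 points, with 5th and 95th percentiles of 1.25 and 8.17 points. The largest window difference, 15.5 points, was at chr9:29000001-30000000, where the clones read 65.1%, 61.1% and 62.0%, the culture 47.2% and fibroblasts 54.4% (26 tiles). Next came chr11:65000001-66000000 with 13.0 points, chr1:77000001-78000000 with 12.0 points, chr2:178000001-179000000 with 11.9 points and chr4:103000001-104000000 with 11.5 points. In each of these 5 windows the culture was also below the fibroblasts, with culture minus fibroblasts from −12.3 to −5.98 points over the tiles listed in both. This was not particular to them. In the 5 lowest windows culture minus fibroblasts was −25.3 to −12.1 points. Over all tiles the culture averaged 41.5% and fibroblasts, where listed, 56.4%. The lowest windows were near 0: chr15:51000001-52000000 differed by −1.23 points, with clones at 35.7%, 39.3% and 40.1% and the culture at 39.6%, and by 0.0933 points without clone 1, and chr11:30000001-31000000 differed by −1.08 points.

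The X chromosome did not follow the autosomes in all measures. Over 2882 X tiles the clones read 44.8%, 46.9% and 47.1% and the culture 44.6%. Over 34766 X positions the clones read 27.0%, 28.5% and 28.6% and the culture 29.6%, and as methylated reads over all reads 25.6%, 26.6% and 26.6% in the clones and 28.8% in the culture. Every clone was thus above the culture by tiles and below it by positions and by reads. With the model run on X alone, 6 tiles rose (0.208%) and 8 fell (0.278%).

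The question whether clones differed from their culture in another way under the AID-null label was asked with an interaction term over 8 libraries. No tile of 109179 was called in either direction by the quasi-binomial model, and 3493 (3.20%) had an unadjusted p under 0.05. By limma on log2 ratios 0 were called, with 1376 at an unadjusted p under 0.05. Averaged over the tiles of the wildtype comparison, AID-null clones read 47.6%, 43.3% and 54.7% and the AID-null culture 48.1%, so that the AID-null culture lay within the range of its clones. Tiles at or above 80%, over 108594 tiles listed in all libraries, made up 21.3%, 12.4% and 33.8% in AID-null clones and 12.8% in the AID-null culture, with overlap, and 6.79%, 10.1% and 9.10% in wildtype clones and 1.44% in the wildtype culture, with none. The count of 0 changed most on leaving out AID-null clone 3, the most methylated one: without it 425 tiles were called with a larger wildtype difference and 5 with a smaller one. Without any other single clone these counts were 0 to 11 and 0 to 2. Libraries under the AID-null label covered 506 to 648 positions on Y and those under the wildtype label 27 to 48, so that genotype and sex chromosomes cannot be told apart in this contrast.

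The RNA of the wildtype culture shows which methylation genes were expressed at the time, with no replicate and no counterpart in the clones. Of 12 genes that set, keep or remove methylation, 10 were at least 2-fold higher in the culture than in fibroblasts and none was lower, against 27% and 17.7% of all genes. Among the writers, Dnmt3b, a de novo methyltransferase, stood at 389 FPKM in the culture and 3.20 FPKM in fibroblasts, and its cofactor Dnmt3l at 785 FPKM in the culture and 7.64 FPKM in fibroblasts. Dnmt3a, the other de novo enzyme, stood at 101 FPKM in the culture and 21.9 FPKM in fibroblasts. The maintenance enzyme Dnmt1 stood at 214 FPKM in the culture and 41.6 FPKM in fibroblasts, and its recruiting factor Uhrf1 at 330 FPKM in the culture and 16.8 FPKM in fibroblasts. Writers and maintenance genes were thus all higher in the culture. Of the Tet dioxygenases, Tet1 stood at 169 FPKM in the culture and 2.07 FPKM in fibroblasts, and Tet2 at 79.4 FPKM in the culture and 17.0 FPKM in fibroblasts. Tet3, at 17.4 FPKM in the culture and 27.1 FPKM in fibroblasts, and the glycosylase gene Tdg, at 7.90 FPKM in the culture and 10.7 FPKM in fibroblasts, were under 2-fold apart. Zfp57, which recruits the silencing protein Trim28 to imprinted regions, stood at 495 FPKM in the culture and 24.6 FPKM in fibroblasts, and Trim28 at 1910 FPKM in the culture and 372 FPKM in fibroblasts. Dppa3, which protects methylation in the early embryo, stood at 14.5 FPKM in the culture and was listed at 0 in fibroblasts.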

How the data were processed

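Per the submitters' processing notes, reads were processed with Bismark, methylKit, TopHat and Cufflinks on mm9. Versions, trimming and filters are not given in the sources used here. Per the file headers, the deposited RRBS files give coverage as a count of reads per cytosine and the percent methylated (C) and converted (T). RNA files give FPKM, normalised by the authors. Methylated reads were recovered as coverage times percent, rounded. Positions with a coverage of at least 10 in all 4 libraries and not above the 99.9th percentile in any entered tiles of 1000 bp that held at least 3 of them, autosomes only. Per tile a quasi-binomial model was fitted in R 4.3.3. Its dispersion came from the 3 clones and was moderated with limma 3.58.1 (trend on binomial information, floor of 1), and the deviance F test was adjusted by Benjamini-Hochberg. The interaction used an identity link and the spread of 6 clones. limma, edgeR 4.0.16 and Fisher's exact test were alternatives, and scripts were tested on simulated data. There, 200 tiles were given a difference of 30 or 50 points. The quasi-binomial model recovered 32.5% of them at 30 points and 90% at 50 points, with 3 and 7 false calls. By edgeR 0% and 88.5% were recovered, and by limma on log2 ratios 29.5% and 97.5%. The interaction recovered 71% at 50 points, with 17 false calls. Tables were handled in Python 3.11.15. RNA was set against fibroblasts as log2(FPKM + 1), a scale that understates changes of low genes, and counted at 2-fold. Depth was a median of 120 to 155 reads per shared position, and floors cover counting error only, since reads carry no molecular identifiers. Tiles named are the 10 largest called differences in each direction that pass the filters given with them, at most 1 per Mb, with the 5 longest runs and the 5 highest and lowest windows, chromosome 18 not used. The members, lists and tests were chosen with earlier results of these data known. Sequences and gene annotation of the tiles were not used here.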

Additional observations from a re-analysis of the deposited data

How the results depend on the processing

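No paired analysis was possible because the wildtype culture is 1 library and carries no replicate number. Against 77 tiles called higher and 47 lower, leaving out 1 clone gave 718 to 1196 higher and 145 to 171 lower. At least 5 positions per tile gave 194 higher, 500 bp tiles 129 and 2000 bp tiles 42. A difference of at least 40 points left 10 higher and 6 lower, and one of at least 15 points gave 171 lower. Keeping X gave 168 higher. Tests by limma, by limma after centring each library on its median, and by edgeR called 0 higher and 0 lower (8541, 7774 and 8213 tiles at an unadjusted p under 0.05), Fisher's exact test on summed reads 2716 and 385, and the rule that every clone differs by 25 points 738 and 123. With the spread from 6 clones 57 and 36 were called, with 27 and 27 of the original calls among them. Mean tile difference, 4.46 points, was 2.12 over positions, 0.276 over reads, 3.14 with at least 5 positions per tile and 1.68 on X alone. The interaction, with 0 calls, gave 1 higher tile at a coverage of 20 and, with 1 clone of either genotype left out, 0 to 425 higher and 0 to 5 lower. The window difference at chr15:51000001-52000000 was −2.09 to 0.0933 points with 1 clone left out and that at chr5:109000001-110000000, −0.991 points, was 0.107 at a coverage of 20. The causes were not tested. All 80 alternative values of the 20 named tiles kept their direction and stayed past both call thresholds. They came only from leaving out 1 clone and from a coverage of 20. The tiles were chosen with every clone at least 25 points to one side. Leaving out 1 clone could therefore not bring a difference under 25 points. It also lowered the adjusted p of each named tile in the quasi-binomial model, so staying under 0.05 is not separate support. By limma and edgeR, which called 0 tiles, none of the named tiles passed. Of the 40 alternative values of the 10 windows, 2 changed direction, given above. The lowest windows also moved in size, at a coverage of 20 to −2.35 points at chr15:51000001-52000000 and to −0.630 points, against −1.03, at chr12:20000001-21000000, and without clone 2 to −0.570 points at chr5:109000001-110000000. The window at chr9:29000001-30000000 differed by 12.8 points at a coverage of 20, against 15.5. The 1 bulk library limits every comparison: its own spread is unknown, and 3 against 1 cannot give an exact p under 0.25.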
